A study of Mus musculus with 111 samples.

Results

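Gm22193, Gm22680, Gm26109, Gm24148, Gm25789 and Gm22571 are 6 small nucleolar RNAs (snoRNAs) of the mouse, named by their annotation numbers. They were taken by name from a read-count table of small RNAs, in which they are 6 of 1268 entries and 6 of the 218 snoRNAs that remained after repeated entries were reduced to 1 each. They were chosen by measured values, namely shifts of these snoRNAs between diets in liver and caput epididymis, between caput and cauda epididymis, and between testis and sperm. Those values are therefore given below as a description, with no test. Diet effects in heart, testis, cauda epididymis and sperm are not among the values named for that choice, and were tested.

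OTTR-seq, a small RNA method built on a template-jumping reverse transcriptase, was applied to cauda epididymis (18 libraries), caput epididymis (19), liver (17), sperm of the cauda (19), testis (19) and heart (19). Mice had eaten 1 of 4 diets for 6 months. The low-protein diet held 10% protein, with sucrose in place of the rest, and was set against its control diet with 18% protein, and the high-fat diet gave 60% of calories as fat and was set against a high-fat control diet with 7.2%. Each tissue and diet had 4 or 5 libraries in 24 groups. The labels give no strain, age or genotype. Nothing says that the replicates of a group were different animals, and a p-value then describes only how far these replicates scatter, which may be technical.

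Box C/D snoRNAs carry a box C sequence near the 5′ end and a box D sequence near the 3′ end, which fold together and bind fibrillarin and its partner proteins. Most guide 2′-O-methylation of ribosomal RNA or spliceosomal RNA by pairing with the target next to a box D. In vertebrates they are usually cut from introns of host genes, many of which encode ribosomal or nucleolar proteins or serve mainly as snoRNA carriers. The files and the annotation assign no target to any of the 6, and none is given here.

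The annotated transcripts of the snoRNAs whose sequence is shown are given here because box letters and length are what they have in common. They come from GENCODE M21 (GRCm38) and are written as DNA, 5′ to 3′, with capitals on the first TGATGA (letters of box C) and on the last CTGA (box D).
Gm22193: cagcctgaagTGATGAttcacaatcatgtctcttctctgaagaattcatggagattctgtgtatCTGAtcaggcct
Gm22680: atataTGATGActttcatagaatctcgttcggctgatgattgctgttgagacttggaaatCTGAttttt
Gm24148: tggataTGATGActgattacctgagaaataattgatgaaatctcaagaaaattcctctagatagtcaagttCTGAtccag
Gm25789: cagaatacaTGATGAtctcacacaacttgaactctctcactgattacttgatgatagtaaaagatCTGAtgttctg
Gm22571: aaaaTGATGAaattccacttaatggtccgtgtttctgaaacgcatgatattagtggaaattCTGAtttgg
TGATGA within the first 20 bases together with CTGA within the last 20, on the transcript strand, was found in 5 of the 6, and the exception was Gm26109, which has CTGA there but not these box C letters. Among all 1507 snoRNA transcripts of the annotation, 21.8% had TGATGA, 35.4% CTGA and 20.6% both, and among the 205 of 212 other snoRNAs of the table that matched exactly 1 transcript 38.5% had both. A match of letters is a description of the sequence. The 6 transcripts are 69 to 80 bases long, and none is identical to, or contained in, another annotated snoRNA transcript.

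Gm24148 has a second identity. RefSeq annotates the same place as a microRNA hairpin, and the table lists the same 1289 reads a second time as Mir3535. The annotated mature microRNA, from RefSeq (GRCm38.p6), is shown with its seed (bases 2 to 8) in capitals because it is the 5′ end of the snoRNA.
mmu-miR-3535: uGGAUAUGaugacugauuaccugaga
Its 26 bases (chr1:86352062-86352087) are bases 1 to 26 of Gm24148, and they include the box C letters. The counts do not tell a full snoRNA from a fragment of it, so reads of Gm24148 cannot be divided between these names.

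The host genes fall into 2 kinds. Snhg1 and Gas5 are non-coding snoRNA host genes. Gm22680 (chr19:8725341-8725409, plus strand, 69 bases) lies in an intron of 11 of the 13 Snhg1 transcripts that span it, and Gm25789 (chr1:161038308-161038383, plus strand, 76 bases) in an intron of 14 of 17 Gas5 transcripts. The other hosts encode proteins: Gm22193 (chr8:110842383-110842458, minus strand, 76 bases) lies in Sf3b3, a splicing factor subunit, in an intron of 2 transcripts and an exon of 1. Gm26109 (chr18:34942644-34942713, minus strand, 70 bases) lies in an intron of Hspa9, a chaperone of mitochondria. An intron of Ncl, which encodes the nucleolar protein nucleolin, holds Gm24148 (chr1:86352008-86352087, minus strand, 80 bases). Gm22571 (chr9:64175873-64175942, plus strand, 70 bases) lies in an intron of Rpl4, a protein gene of the large ribosomal subunit.

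Depth limits what can be said of single libraries. Reads per library over the 1042 features kept ran from 827 to 1467880, with a median of 59904, and 3 libraries had under 5000: high-fat liver replicate 3 (827) and low-protein caput replicates 2 (2353) and 3 (912). Levels are given as RPM, the usual scaling of a feature's reads by the kept reads of its library. Over all libraries Gm25789 had 11889 reads, Gm26109 4384, Gm22193 3088, Gm22680 2190, Gm24148 1289 and Gm22571 285. Precursors of piRNAs, small RNAs of male germ cells, had a median share of 3.30% in testis and 0.00314% in heart. Mitochondrial tRNAs had a median of 76.4% in heart and 47.7% in liver. That share does not mark heart alone, as it ran from 52.5% to 78.0% in low-protein livers and from 36.7% to 87.3% in low-protein hearts. The table holds no other markers by which to check the labelled tissues. In bulk tissue, fewer cells of a type and less RNA per cell cannot be told apart.

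**Figure D1:**
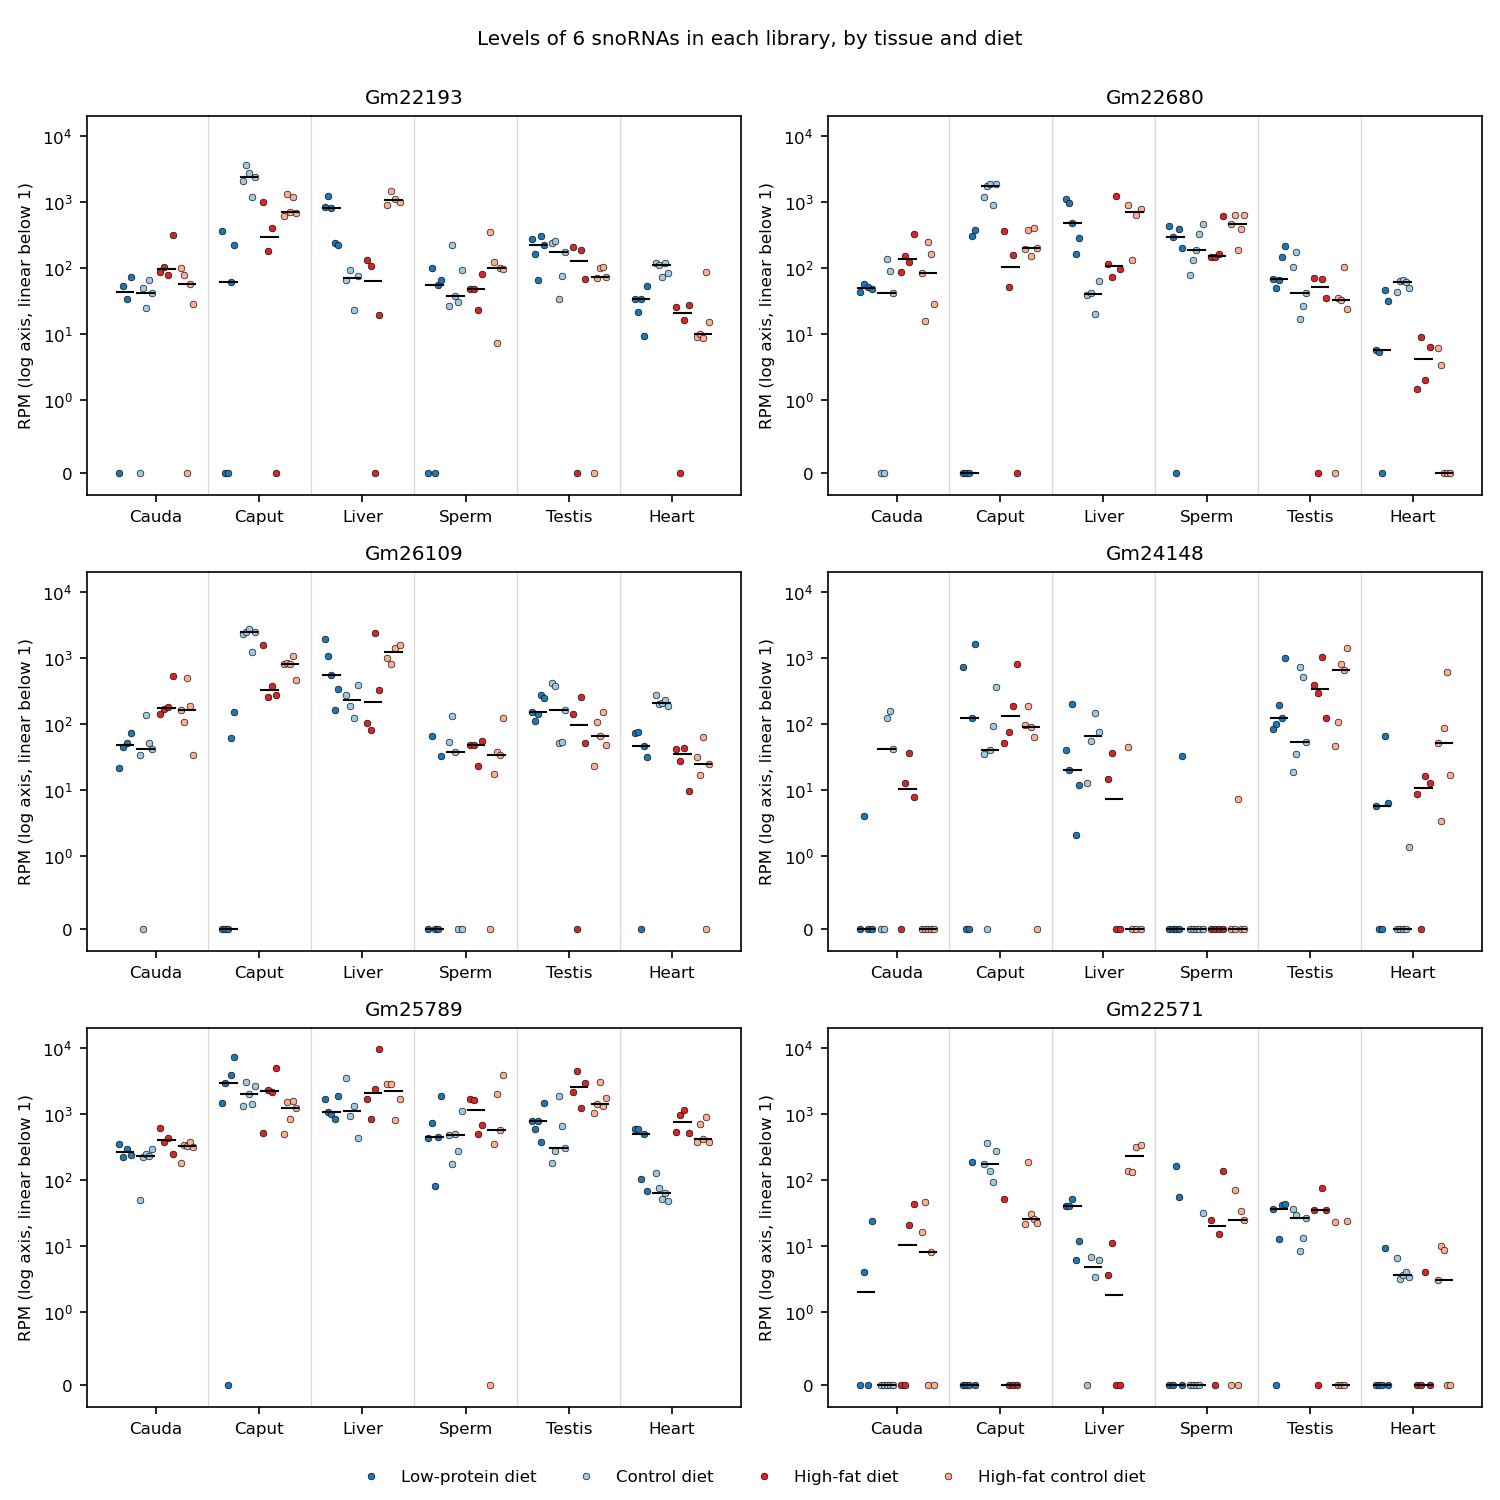
Each point is 1 library; the vertical axis gives RPM on a log scale that is linear below 1, and black bars mark the median of each tissue and diet. Gm25789 had a median from 293 RPM in cauda to 1668 RPM in liver, and Gm24148 lay at 0 in 17 of 19 sperm libraries.

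Across tissues, taken as a description, the 6 snoRNAs did not share 1 order. The interquartile ranges over the libraries of each tissue overlapped those of the next tissue in the order for all 6, so no neighbouring pair stood apart beyond its spread. Gm25789, of Gas5, had the highest median per base of the 6 in each tissue, and its own medians were 1668 RPM in liver, 1558 in caput, 1243 in testis, 501 in sperm, 423 in heart and 293 in cauda. Gm22193, of Sf3b3, had its highest median in caput at 682 RPM, then 220.4 in liver, 102 in testis, 55.8 in sperm, 54.6 in cauda and 27.1 in heart.

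Gm26109, of Hspa9, followed with 798 RPM in caput, 388 in liver, 141 in testis, 90.5 in cauda, 42.6 in heart and 33.4 in sperm. Gm22680, of Snhg1, differed in that sperm came second, at 298 RPM, next to 309 in caput, and above 164 in liver, 69.9 in cauda, 49.4 in testis and 6.05 in heart. Gm24148, of Ncl, was highest in testis at 194 RPM, with 90.8 in caput, 14.6 in liver, 5.66 in heart, and a median of 0 in cauda and sperm. Gm22571, of Rpl4, had the lowest median per base of the 6 in caput, with 25.5 RPM there, 23.97 in testis, 10.97 in liver, 3.02 in heart and 0 in cauda and sperm.

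In the fit over all diets, cauda lay below caput for all 5 of the snoRNAs that passed the filter on low counts. The log2 difference, cauda minus caput, was −3.50 ± 0.46 (SE) for Gm22193, −3.14 ± 0.70 for Gm24148, −2.89 ± 0.42 for Gm25789, −2.63 ± 0.41 for Gm26109 and −2.21 ± 0.48 for Gm22680. The median over 100 snoRNAs in that fit was −1.07 and over all 294 features 0.80. On the control diet no cauda library reached the caput range for Gm22193, with 0 to 64.6 RPM in 5 cauda libraries and 1175 to 3569.9 RPM in 5 caput libraries. On the low-protein diet the ranges overlapped, with 0 to 72.3 RPM of Gm22193 in 4 cauda libraries and 0 to 368 RPM in 5 caput libraries. Within single diets the cauda median was the higher one in 4 cases among these 5. For Gm22680 it was 49.7 RPM in cauda and 0 in caput on the low-protein diet, and 139 RPM in cauda and 103 RPM in caput on the high-fat diet. For Gm26109 it was 48.1 RPM in cauda and 0 in caput on the low-protein diet, and for Gm24148 42.3 RPM in cauda and 40.5 RPM in caput on the control diet.

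Between sperm and testis, Gm22680 and Gm24148 had fitted differences of opposite sign. Gm22680 was higher in sperm by 3.12 ± 0.47 on the log2 scale, while the median of the 100 snoRNAs was −1.77 and that of all 294 features −0.54. Its libraries held 146 to 604 RPM in high-fat sperm against 0 to 70.3 RPM in high-fat testis, and 185 to 635 RPM in high-fat control sperm against 0 to 102 RPM in high-fat control testis, with no overlap on either diet. On the low-protein diet (0 to 437 RPM in sperm, 49.4 to 218 RPM in testis) and on its control (79.2 to 467 RPM in sperm, 16.96 to 174 RPM in testis) the ranges overlapped.

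Gm24148 had 2 reads in all 19 sperm libraries, 1 on the low-protein and 1 on the high-fat control diet, and 862 reads in 19 testis libraries, where each library had it. The ratio of its read rates, sperm over testis, was 0.00918, with an exact 95% interval from 0.00111 to 0.0332 that covers counting error only. No read was seen in 5 control or 4 high-fat sperm libraries, which allows up to 19.7 RPM and 13.2 RPM over those groups. Gm26109 was at −1.13 ± 0.47 on the log2 scale, and on the low-protein diet its 0 to 66.2 RPM in sperm, 3 reads in all, lay below all of the 111.3 to 277 RPM in testis, while its ranges overlapped on the other 3 diets. Gm22193 was at −0.17 ± 0.47 and Gm25789 at 0.18 ± 0.38, with overlap on all 4 diets.

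Within a library, which needs no scaling, the order of Gm22680 and Gm22193 differed between most sperm and most testis libraries. Testis against sperm was among the comparisons used for the choice, so this order is a description. Per base of transcript (69 and 76 bases), Gm22680 was above Gm22193 in 17 of 19 sperm libraries and in 3 of 19 testis libraries. The summed reads per base had a ratio, Gm22680 over Gm22193, of 5.39 in sperm (230 and 47 reads) and 0.511 in testis (265 and 571 reads). In cauda, the place the sperm were taken from, the ratio was 1.27, and it was 0.614 in caput, 0.875 in liver and 0.597 in heart.

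**Figure D2:**
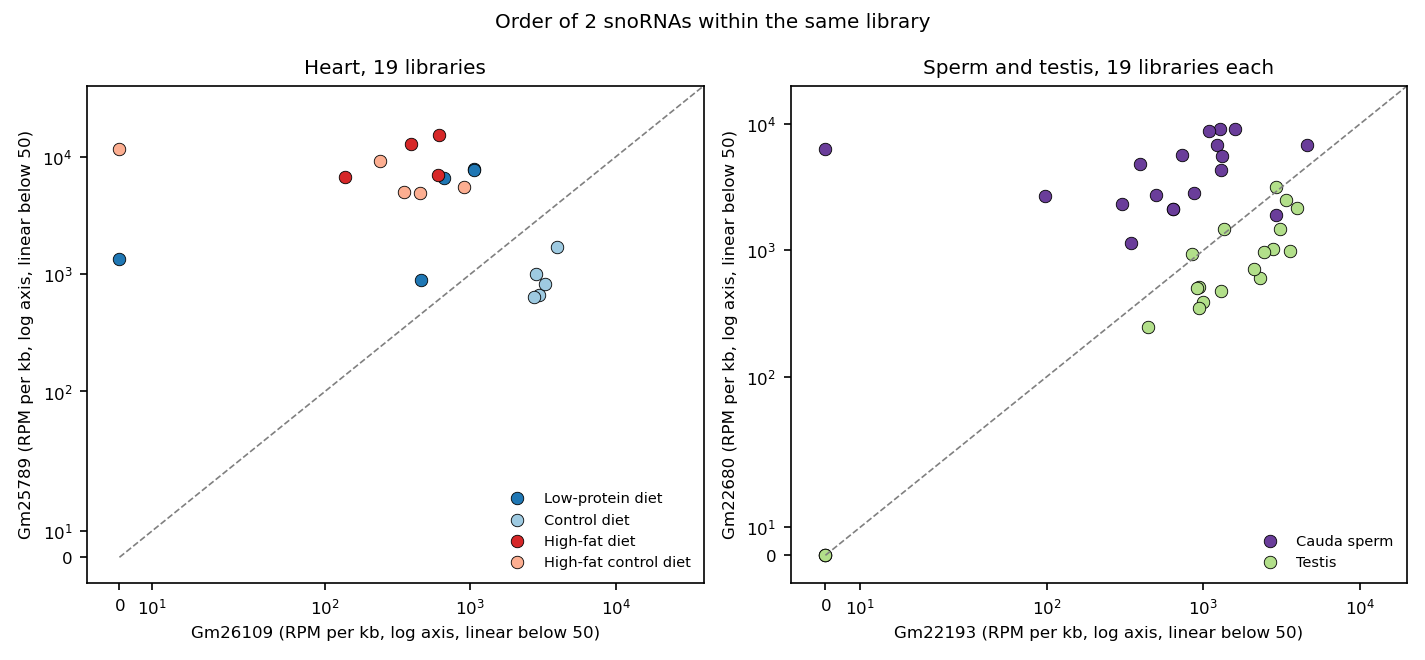
Each point is 1 library, placed by the levels of 2 snoRNAs in RPM per kb of transcript on log axes that are linear below 50; the dashed line marks equal levels. In heart the 5 control libraries lie below the line and the 14 others above it; in the right panel 17 of 19 sperm libraries lie above the line, against 3 of 19 testis libraries.

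In liver and caput, where the choice was made, the low-protein diet went with opposite shifts of Gm22193, Gm22680 and Gm26109. Gm22193 had 839, 1210.2, 801, 236 and 220.4 RPM in low-protein livers, against 64.9, 93.2, 23.4 and 76.6 RPM in control livers. In caput it had 368, 0, 0, 61.7 and 224 RPM on the low-protein diet, against 2108, 3569.9, 2769, 1175 and 2406 RPM on the control diet. Groups did not overlap in either tissue, and low-protein was the higher one in liver and the lower one in caput. The fitted log2 differences, low-protein minus control, were 3.46 ± 0.66 in liver and −3.95 ± 0.64 in caput.

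Gm22680 moved in the same 2 directions. It had 1119, 976, 483, 164 and 285 RPM in low-protein livers, against 38.9, 41.4, 20.1 and 64.3 RPM in control livers, and 0, 0, 0, 309 and 373 RPM in low-protein caput, against 1199.8, 1749, 1851, 900.0 and 1841 RPM in control caput. Again the groups did not overlap, with log2 differences of 3.82 ± 0.66 in liver and −2.71 ± 0.55 in caput. Gm26109 ranged from 160.0 to 1958 RPM in low-protein livers and from 124 to 388 RPM in control livers, which overlap (1.69 ± 0.62). Its caput libraries held 3 reads on the low-protein diet, 1 in replicate 4 and 2 in replicate 5, against 616 on the control diet, a ratio of rates of 0.0356 (exact 95% interval 0.00732 to 0.104).

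The low-protein caput libraries held 38310 reads in all, and replicates 2 and 3 are the 2 shallow ones. Without them and high-fat liver replicate 3, the caput differences were −3.72 for Gm22193 and −2.45 for Gm22680. The fitted values of Gm25789 were 0.13 ± 0.75 in liver and 0.75 ± 0.48 in caput, with overlapping groups in both. Gm24148 was higher in low-protein caput (2.58 ± 0.88), from 28 reads against 27 in a control group of 279901 reads, 22 of the 28 in replicate 5. Gm22571 had 6.15 to 50.8 RPM in low-protein livers and 0 to 6.90 RPM in control livers (2.35 ± 0.72), and was seen in 1 of 5 low-protein caput libraries with 3 reads, against 47 reads over all 5 of the control.

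How often other features separated by diet in liver or caput was not counted, so these shifts are not shown to be particular to the listed snoRNAs. The make-up of the libraries moved with the low-protein diet in both tissues. Mitochondrial tRNAs took 52.5% to 78.0% of the reads of low-protein livers and 21.7% to 28.6% of control livers, and 15.0% to 33.7% in low-protein caput and 35.2% to 52.4% in control caput, with no overlap in either tissue. Median depth was 157380 reads in low-protein livers and 294412 in control livers, and 5438 in low-protein caput and 65559 in control caput. The numbers in the column names run from 48 to 52 in low-protein livers and 1 to 4 in control livers, and from 21 to 25 in low-protein caput and 11 to 15 in control caput. These differences and the diet cannot be told apart.

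In liver, Gm22193 and Gm22571 were lower on the high-fat diet than on the high-fat control diet. Gm22193 had 131, 106, 0 and 19.4 RPM in high-fat livers and 903, 1465, 1115 and 1001 RPM in high-fat control livers, with no overlap (−2.14 ± 0.70). Gm22571 had 3.65, 10.97, 0 and 0 RPM in high-fat livers, against 135, 133, 319 and 334 RPM in high-fat control livers (−3.39 ± 0.94), from 4 and 10 reads. Gm25789 was the one with a higher fitted value, 2.35 ± 0.84, although its 841 to 9760.5 RPM in high-fat livers overlapped the 796 to 2864 RPM of the high-fat controls. Scaled to total counts, the 5 fitted liver values were all lower, at −3.63 for Gm22193, −4.94 for Gm22571 and 0.88 for Gm25789, and Gm22680 and Gm26109 were at −2.41 and −2.34 in place of −0.99 each. The ranges of Gm22680 and Gm26109 overlapped only through high-fat replicate 3, the library of 827 reads, with 1 read (1209 RPM) and 2 reads (2418 RPM). Their other high-fat livers, at up to 117 and 331 RPM, lay below every high-fat control liver (133 to 903 and 799 to 1557 RPM). The 2 control diets differed too, with 23.4 to 93.2 RPM of Gm22193 in control livers and 903 to 1465 RPM in high-fat control livers. Median depth was 12002.5 reads in high-fat control livers and 162506.5 in high-fat livers. The numbers in the column names run from 44 to 47 and from 53 to 56. These differences and the diet cannot be told apart.

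In high-fat caput Gm22193 (−1.06 ± 0.48), Gm22680 (−0.86 ± 0.56) and Gm26109 (−0.31 ± 0.46) had fitted values below 0 and Gm24148 (1.30 ± 0.97) and Gm25789 (1.01 ± 0.50) above 0. The ranges of all 5 overlapped between high-fat and high-fat control caput. The 3 with values below 0 were also lower in low-protein caput.

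**Figure D3:**
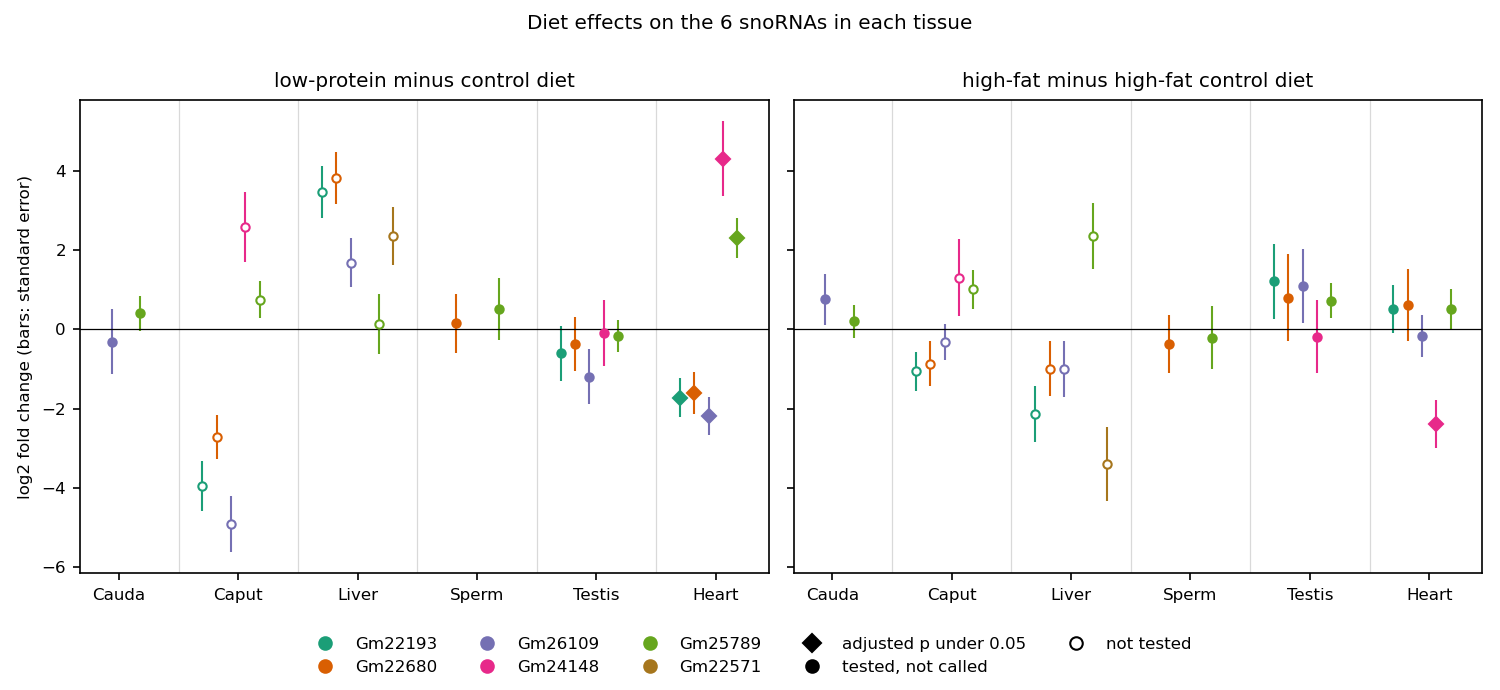
Fitted log2 fold changes of the 6 snoRNAs in each tissue, with standard errors, for low-protein minus control (left) and high-fat minus high-fat control (right); open circles mark the comparisons used for the choice, which were not tested, and diamonds an adjusted p under 0.05. In heart, 2 snoRNAs lie above 0 and 3 below 0 on the low-protein diet; the heart point of Gm24148 and the caput point of Gm26109 rest on 2 and 3 reads in 1 of the groups.

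Heart is the tissue in which the tested effects reached the threshold. On the low-protein diet, 5 of the 6 snoRNAs passed the filter on low counts and all 5 were called. Gm24148 and Gm25789 were higher and Gm22193, Gm22680 and Gm26109 lower than on the control diet. Gm24148 passed the filter only through low-protein replicate 4 and hearts of the high-fat control diet, so its call is not used as support. The share of all features called in this comparison was 75.2% (182 of 242), 33.5% higher and 41.7% lower, so a call here was common. The other snoRNAs leaned upwards, with 37 of 79 higher, 4 lower and a median log2 fold change of 0.83, against −0.29 over all 242 features.

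Gm25789, of the non-coding host Gas5, had 599.8, 586, 103, 502 and 68.1 RPM in low-protein hearts, against 129.6, 76.0, 50.9, 62.6 and 48.4 RPM in control hearts. Replicates 1, 2 and 4 of the low-protein hearts lay far above every control heart, and replicates 3 and 5 lay within the control range, so the groups overlapped. Its log2 fold change was 2.31 ± 0.49 (edgeR quasi-likelihood test, adjusted p = 7.88e-06). The high-fat and high-fat control hearts, at 515 to 1166 and 376 to 883 RPM, were all above the control hearts too.

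Gm26109, of Hspa9, showed the reverse. It had 73.6, 74.6, 0, 46.5 and 31.9 RPM in low-protein hearts, against 274, 198, 207, 227 and 190.1 RPM in control hearts. Every low-protein heart lay below every control heart, and the log2 fold change was −2.19 ± 0.48 (edgeR, adjusted p = 1.01e-05). The hearts of the other diets were low as well, with 9.56 to 42.6 RPM on the high-fat diet and 0 to 62.8 RPM on its control.

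Gm22193 had 33.95, 21.3, 34.2, 9.29 and 53.2 RPM in low-protein hearts, against 119, 112, 72.7, 119.7 and 85.2 RPM in control hearts. The groups did not overlap, and the log2 fold change was −1.72 ± 0.48 (edgeR, adjusted p = 0.000677). Gm22680 had 5.66, 5.33, 0, 46.5 and 31.9 RPM in low-protein hearts, against 43.6, 63.4, 65.4, 61.2 and 49.7 RPM in control hearts, where low-protein replicate 4 reached into the control range (−1.60 ± 0.53, edgeR, adjusted p = 0.00417). High-fat and high-fat control hearts were low too, with medians of 21.2 and 10.1 RPM of Gm22193 and 4.20 and 0 RPM of Gm22680. One exception was high-fat control replicate 4, at 88.3 RPM of Gm22193 from 1 read.

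The calls of these 2 depended on single libraries and on the fit. Gm22193 was not called without control replicate 1 (−0.88, edgeR adjusted p = 0.0827) or with only the 2 diets in the fit (−1.05, adjusted p = 0.0644). Gm22680 lost its call when any 1 of the 5 control hearts was left out (−0.89 to −1.10, edgeR adjusted p 0.0574 to 0.141) or with only the 2 diets (−0.98, adjusted p = 0.0842). Gm25789 and Gm26109 kept their calls under all 17 alternatives, at adjusted p up to 0.0153 and 0.0129, with values from 1.51 (all deposited entries) to 3.27 (without control replicate 1) for Gm25789, and from −3.02 (all deposited entries) to −1.40 (without control replicate 1) for Gm26109.

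Gm24148, of Ncl, was nearly absent from control hearts, with 2 reads, both in replicate 5, of 5323023. Low-protein hearts had 11 reads of 971361, 7 of them in replicate 4, 3 in replicate 5 and 1 in replicate 1. The ratio of rates, low-protein over control, was 30.1, with an exact 95% interval from 6.58 to 279.8 for counting error only, and the comparison was called by edgeR (adjusted p = 1.45e-05). Replicates 2 and 3 of the low-protein hearts had no read, as in 4 of the 5 control hearts, and without replicate 4 Gm24148 did not pass the filter. The libraries that carried it past the filter were replicate 4 and high-fat control replicates 1, 3 and 4 (51.4, 85.7 and 618 RPM). Since 1 low-protein library and another diet admitted it, the call is no support for an effect of the low-protein diet. Gm22571, of Rpl4, was not tested in heart, with 1 read in low-protein and 21 in control hearts. The ratio of rates was 0.261 (exact 95% interval 0.00631 to 1.62), and this interval includes no change.

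Depth and scaling moved with the low-protein heart comparison. Low-protein hearts had a median of 176730 reads and control hearts 1101120, and the sample numbers in the column names, whose meaning is not given, run from 35 to 39 in low-protein hearts and from 5 to 9 in control hearts. Mitochondrial tRNAs took 36.7% to 87.3% of the reads of low-protein hearts and 74.7% to 78.0% of control hearts. These differences and the diet cannot be told apart here. The median over all features was −0.07 with RLE factors and −0.13 with total counts, and relative to it Gm25789 stood at 2.51 to 2.66, Gm26109 at −1.96 to −1.87, Gm22193 at −1.48 to −1.41 and Gm22680 at −1.36 to −1.31 under the 3 scalings. Leaving out any 1 control heart brought that median, −0.29 in the main fit, to between 0.29 and 0.61. The calls of Gm22193 and Gm22680 that were lost without a control heart went with this shift over all features, and its cause was not tested.

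Within a heart library, which needs no scaling, the order of Gm25789 and Gm26109 was the opposite on the low-protein and the control diet. Per base, Gm25789 was above Gm26109 in 5 of 5 low-protein hearts and in 0 of 5 control hearts, with ratios of summed reads per base of 5.98 and 0.299. It was above Gm26109 in 4 of 4 high-fat and 5 of 5 high-fat control hearts as well (ratios 22.5 and 12.3). Gm25789 was above Gm22193, which has the same length, in 5 of 5 low-protein and 1 of 5 control hearts. Against Gm22680 it was above in 5 of 5 low-protein and 2 of 5 control hearts. The ratios of summed reads per base to Gm22680 were 12.6 and 1.10, so that order did not reverse over the group.

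On the high-fat diet, heart gave 1 call among the 5 snoRNAs tested, against 1.24% of all features (3 of 242). Gm24148 had 8.69, 0, 16.2 and 12.7 RPM in high-fat hearts, against 51.4, 3.36, 85.7, 618 and 17.1 RPM in high-fat control hearts. All high-fat hearts lay below 4 of the 5 high-fat control hearts, control replicate 2 lay within their range, and the highest control value is 7 reads in a library of 11320. The log2 fold change was −2.39 ± 0.61 (edgeR, adjusted p = 0.0102). This call was lost with RLE factors (adjusted p = 0.167), total counts (0.206), all deposited entries (0.501) and DESeq2 (0.180), and Gm24148 did not pass the filter without high-fat control replicate 1, 3 or 4. Those 3 libraries and low-protein replicate 4 carried it past the filter, and no high-fat heart did. A filter passed through the group with the higher values favours a lower value on the high-fat diet. This call is therefore no support for a lower level.

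The other 4 were not called on the high-fat diet in heart. Gm25789 was at 0.52 ± 0.50, Gm22193 at 0.51 ± 0.59, Gm22680 at 0.62 ± 0.91 and Gm26109 at −0.16 ± 0.52 (edgeR, adjusted p 0.858 to 0.991). Among the other snoRNAs 0 of 79 were called (31 of all 242 features had an unadjusted p under 0.05), with a median of 0.17. The count over all features, 3, became 17 without high-fat replicate 1, 14 without high-fat replicate 4, and 6, 0 and 1 without high-fat control replicates 2, 3 and 5.

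In testis, 5 of the 6 snoRNAs were tested and none was called on either diet, as was the case for all 447 features (0% called). At an unadjusted p under 0.05 there were 39 features for low-protein and 19 for high-fat, and DESeq2 called 0 and 2. Low-protein values were −1.20 ± 0.69 for Gm26109, −0.60 ± 0.68 for Gm22193, −0.38 ± 0.68 for Gm22680, −0.16 ± 0.40 for Gm25789 and −0.08 ± 0.83 for Gm24148. High-fat values were 1.22 ± 0.95 for Gm22193, 1.09 ± 0.93 for Gm26109, 0.80 ± 1.10 for Gm22680, 0.73 ± 0.43 for Gm25789 and −0.18 ± 0.92 for Gm24148.

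Gm24148 was uneven between testis libraries. Its level was 84.2, 98.9, 194, 123 and 1012 RPM in low-protein testes and 18.9, 34.9, 738, 514 and 53.6 RPM in control testes. Single libraries of both groups stand at the top, and the ranges overlap throughout. High-fat testes, at 121 to 1016 RPM, lay within the 46.2 to 1438 RPM of the high-fat controls.

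Cauda and sperm gave no calls on either diet, among 218 and 180 features tested (0% called). At an unadjusted p under 0.05 there were 45 features for low-protein and 18 for high-fat in cauda, and 0 and 6 in sperm; DESeq2 called 17 and 0 in cauda and 0 and 0 in sperm. In cauda the 2 snoRNAs tested were Gm25789 (0.41 ± 0.44 low-protein, 0.20 ± 0.41 high-fat) and Gm26109 (−0.31 ± 0.82 and 0.76 ± 0.64). In sperm they were Gm25789 (0.51 ± 0.78 low-protein, −0.21 ± 0.79 high-fat) and Gm22680 (0.15 ± 0.75 and −0.38 ± 0.73). Their standard errors ran from 0.41 to 0.82, so a change of that size could not be told from 0 with these libraries. A call needs a change of several standard errors, so changes well above that size could have been missed as well. The count over all features in cauda moved with single libraries: for low-protein it was 1 without control replicate 1 and 3 without control replicate 3, and for high-fat 2 without high-fat control replicate 2, 10 without high-fat replicate 1 and 1 without high-fat replicate 4.

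Other snoRNAs from the same host genes were compared, 16 in all. In low-protein hearts 5 of 11 tested were called, 3 higher and 2 lower, against 75.2% of all features, and on the high-fat diet 0 of 11, against 1.24%. Neither testis (13 tested), cauda (10) nor sperm (6) gave a call. From Gas5, Snord80 rose by 1.55 ± 0.51 (edgeR, adjusted p = 0.00417) and Gm22357 by 1.63 ± 0.55 (adjusted p = 0.0048) in low-protein hearts, like Gm25789, while Gm26224 of the same host fell by 1.53 (SE 0.49, adjusted p = 0.00269) and Snord47 was not called (−0.20 ± 0.47).

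From Snhg1, Gm24452 was lower in low-protein hearts (−1.19 ± 0.47, edgeR adjusted p = 0.0174), the direction of Gm22680, and Gm25855 (−0.49 ± 0.46) and Gm25894 (0.92 ± 0.45) were not called. Snord82 of Ncl was higher (1.49 ± 0.58, adjusted p = 0.0145), the direction of Gm24148. Snord111, the other snoRNA of Sf3b3, was not called (−0.55 ± 0.51), and neither were Gm23344 (0.91 ± 0.62) and Gm22455 (−1.02 ± 0.53) of Rpl4.

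**Figure D4:**
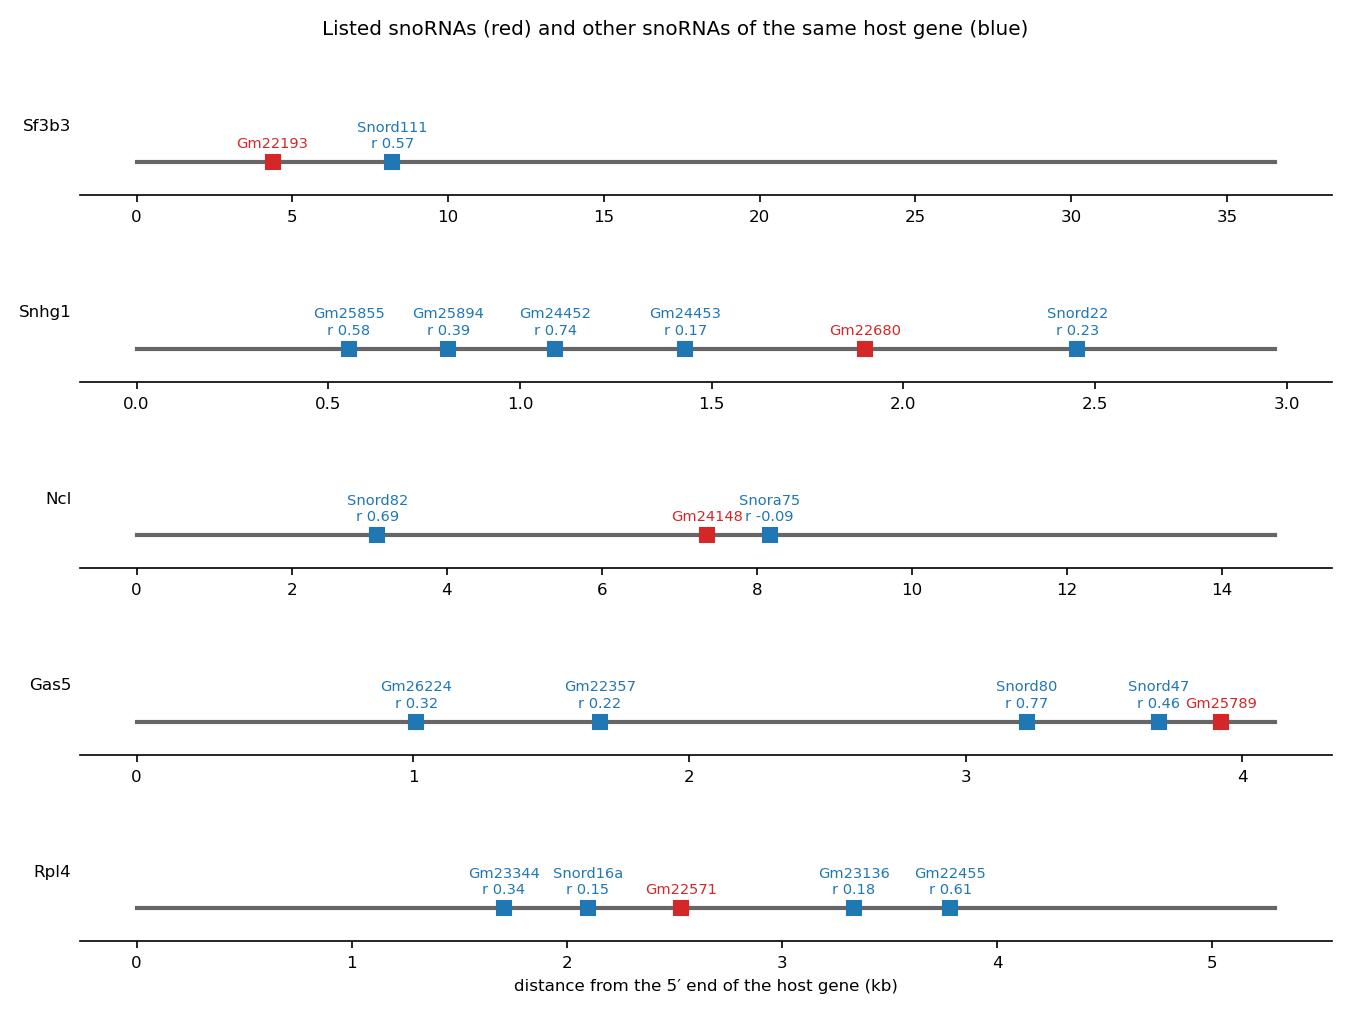
Each line is a host gene drawn from its 5′ end to scale in kb (a separate scale per gene), with the listed snoRNA in red and other snoRNAs of the table in blue; r is the Pearson correlation with the red snoRNA over 24 groups of tissue and diet. In Snhg1 and Gas5, r runs from 0.17 to 0.74 and from 0.22 to 0.77 within 1 host.

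Likeness of pattern was measured by Pearson's r of the mean log2(RPM + 1) over the 24 groups of tissue and diet, among 795 features with at least 50 reads. The groups share libraries and depth, so r is a description. For Gm22680 the most alike feature was Gm24452 of its own host (r = 0.74), and for Gm25789 it was Snord80 of its own host (0.77). The other snoRNAs of Snhg1 stood at ranks 11 (Gm25855, 0.58), 46 (Gm25894, 0.39), 172 (Snord22, 0.23) and 260 (Gm24453, 0.17) for Gm22680. Those of Gas5 stood at ranks 53 (Snord47, 0.46), 94 (Gm26224, 0.32) and 194 (Gm22357, 0.22) for Gm25789.

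Gm22193 was most like Snord19 and Snord1a (0.85 each), Gm26109 like Snord4a (0.83) and Snord19 (0.81), and Gm24148 like Gm24494 (0.86) and Snord14c (0.83). Gm22571 was most like Gm22193 (0.85), then Gm24016 (0.75), Gm22680 had Gm22193 second (0.73), and Gm25789 had Snord99 second (0.69). Among the 6, Gm22193 ran close to Gm22571 (0.85), Gm26109 (0.81) and Gm22680 (0.73). Gm24148 ran apart from them, from −0.29 with Gm22680 to 0.21 with Gm26109, and reached 0.52 with Gm25789.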

How the data were processed

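The deposited table gives read counts, whole numbers with no normalization, for 1268 small RNA entries in 111 libraries. The submitters' processing notes name the tools cutadapt and DESeq2 and the build mm10, without versions. The sources used here give neither the aligner nor the counting rule, so how multiply mapping reads and strand were handled is not known. Per the labels' protocols, libraries were amplified by PCR and no molecular identifiers are mentioned, so intervals and limits from 0 reads (3 reads over a group) cover counting error only. Second names of mitochondrial tRNAs, 5S rRNA copies, and entries of at least 50 reads whose counts differed by under 5.0% were reduced to 1 each, leaving 1042 features with 51.1% of the summed counts. None of 204 replicate pairs agreed within sampling noise (smallest chi-square per degree of freedom 1.54).

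Counts were fitted with edgeR 4.0.16 in R 4.3.3 (TMM factors, filterByExpr, robust quasi-likelihood F test), 1 fit per tissue with 4 diets and 1 over all tissues, with Benjamini-Hochberg adjustment over all features of a comparison and calls at an adjusted p under 0.05. Standard errors come from the F statistic. DESeq2 1.42.0 was an alternative. The scripts were tested on simulated data. Positions, hosts and sequences come from GENCODE M21. The 6 members and the lists were chosen with earlier results of these data known. Further features are named by 2 rules: the 2 most alike in pattern to each member, and every other snoRNA of a member's host. Deviations of libraries with the same replicate number in the title correlated positively in every pair for high-fat against high-fat control in cauda (r 0.13 to 0.45, 4 pairs). They did so too for high-fat testis (0.056 to 0.131, 4 pairs) and low-protein heart (0.041 to 0.337, 5 pairs). In the other comparisons some pairs were negative.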

Additional observations from a re-analysis of the deposited data

Results flagged for a closer look

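The groups of 1 snoRNA, tissue and diet number 144, and in 27 of them 1 library stood far from the rest. The cut-off was meant to give about 1 in 20 groups by chance. That rate does not hold where a single read stands against libraries without any, so the 27 are no measure of an excess over chance. Several of the libraries standing apart rest on single reads, so values are given with the nearest other library of the group.

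For Gm22193, high-fat control heart replicate 4 had 88.3 RPM (1 read; next 15.2) and high-fat cauda replicate 4 had 317 RPM (next 102). That cauda library was also high for Gm26109, at 531 RPM (next 181). For Gm22680, high-fat liver replicate 3, the library of 827 reads, had 1209 RPM (1 read; next 117), and high-fat sperm replicate 4 had 604 RPM (next 162). The same liver library had 2418 RPM of Gm26109 (2 reads; next 331), and high-fat caput replicate 1 had 1565 RPM of it (next 372).

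For Gm24148 the liver libraries standing apart were low-protein replicate 3 with 203 RPM (next 39.96) and high-fat control replicate 1 with 45.2 RPM (1 read; others 0). In heart they were low-protein replicate 4 with 65.0 RPM (7 reads; next 6.38), control replicate 5 with 1.36 RPM (2 reads; others 0) and high-fat control replicate 4 with 618 RPM (7 reads; next 85.7). Low-protein testis replicate 5 had 1012 RPM (next 194) and control caput replicate 5 had 368 RPM (next 91.5). Single reads gave 4.08 RPM in low-protein cauda replicate 2, 32.997 RPM in low-protein sperm replicate 5 and 7.40 RPM in high-fat control sperm replicate 3, where all others were 0.

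For Gm25789, control testis replicate 3 had 1858 RPM (next 665), and high-fat control cauda replicate 1 was low at 182 RPM (next 319.7). For Gm22571 in heart, low-protein replicate 4 had 9.29 RPM (1 read) and high-fat replicate 3 had 4.06 RPM (2 reads), with the others at 0, and control replicate 1 had 6.61 RPM (5 reads; next 4.08). In caput, low-protein replicate 4 had 185 RPM (3 reads) and high-fat replicate 1 had 52.2 RPM (1 read), with the others at 0, and high-fat control replicate 2 had 187 RPM (4 reads; next 30.3). Low-protein cauda replicate 4 had 24.1 RPM (1 read; next 4.08) and control sperm replicate 5 had 31.2 RPM (1 read; others 0).

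Between tissues, for Gm22193 and Gm22680 all low-protein libraries lay above all control libraries in liver and below them in another tissue. The difference was not tested. How often other features did the same was not counted, so it is not shown to be particular to these snoRNAs. The log2 fold changes of Gm22193 differed by 7.56 between liver and caput and by 5.10 between liver and heart, and those of Gm22680 by 7.35 between liver and caput. The comparisons in liver and caput were used to choose these snoRNAs.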

How the results depend on the processing

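Of 28 tested member results, 447 values under alternatives kept their direction and call in 408 cases, lost the call in 12 and changed sign in 27, none of the last among called results. Unless stated, the cause was not tested. Calls over all features in low-protein heart (182) became 291 with no filter and 283 with all deposited entries, and high-fat heart (3) became 0 with all entries and 13 with only the 2 diets. High-fat testis (0) had 2 calls by DESeq2 and 1 with only the 2 diets. Low-protein cauda (0) had 3 with RLE factors, 3 with total counts, 11 with no filter, 1 with all entries, 17 by DESeq2 and 36 with only the 2 diets, and high-fat cauda (0) had 38 with no filter and 14 with all entries. Leaving out 1 library gave 170 to 191 calls in low-protein heart, 0 to 17 in high-fat heart, 0 to 3 in low-protein cauda, 0 to 10 in high-fat cauda, and 0 to 0 in testis and sperm. With the replicate block, calls were 180 in low-protein heart, 2 in high-fat heart, 7 in low-protein cauda and 0 in the other 5. Same-numbered libraries correlated positively in every pair for high-fat cauda, high-fat testis and low-protein heart. The numbers are those of the titles. In low-protein cauda they are not the numbers in the library names, so the block and its 7 calls did not match library names there. Whether a shared number means that libraries are paired is not known. The block turned Gm24148 in high-fat testis to 0.77 and Gm25789 in high-fat sperm to 0.70. Total counts turned low-protein testis to 0.39 for Gm22193, 0.63 for Gm22680, 0.21 for Gm24148 and 0.31 for Gm25789, with the median of all features at 0.64. Gm25789 in low-protein cauda was −0.043 with all entries, and Gm22680 in low-protein sperm −0.11 with no filter. Leaving out 1 library gave these ranges where the sign changed: −0.34 to 0.20 for Gm26109 in high-fat heart, −0.64 to 0.21 for Gm22680, −1.16 to 0.48 for Gm24148 and −0.37 to 0.33 for Gm25789 in low-protein testis, −1.19 to 0.40 for Gm24148 in high-fat testis, −0.50 to 0.59 and −0.16 to 1.28 for Gm26109 in low-protein and high-fat cauda, −0.18 to 0.58 for Gm22680 and −0.30 to 1.04 for Gm25789 in low-protein sperm, and −0.70 to 0.47 for Gm25789 in high-fat sperm. With total counts, the untested high-fat liver values were −3.63 for Gm22193, −2.41 for Gm22680, −2.34 for Gm26109, 0.88 for Gm25789 and −4.94 for Gm22571, and all entries gave 0.97 for Gm25789. Gm22571 and most members in cauda and sperm were too scarce for a test, and limits there rest on a few reads per library.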
